A study of Mus musculus with 22 samples.

Results

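Eif1a, Eif1ax, Eif1ad and 5 Eif1a-like genes of chromosome 12 (Gm2016, Gm5662, Gm8300, Gm2022 and BB287469) were followed in control and H2A.Z knockdown (KD) mouse embryos at 3 preimplantation stages. They were picked by gene symbol, which takes 8 of the 55335 genes in the deposited expression table, each with 1 row. The chromosome 12 genes were higher at the 2-cell stage than later, as the name of 2-cell relatives says of them. Eif1a, Eif1ax and Eif1ad were lower at the 2-cell stage than in morulae, so that name fits 5 of the 8 genes only.

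The embryos, labelled B6D2F1, came from superovulated B6D2F1 females (C57BL/6 × DBA/2) 8 weeks old that had mated with B6D2F1 males, and each of the 22 RNA-seq libraries was made from 15 pooled embryos. Control embryos gave 4 libraries at each stage. KD embryos gave 3 libraries of 2-cell embryos, 3 of morulae and 4 of blastocysts. As zygotes, 20 to 22 h after hCG, the KD embryos had received about 10 pL of a mixture of 3 siRNA pairs against H2A.Z at 20 µM, and whether the control embryos of these libraries were injected is not given. Collection was at 43 to 44 h after hCG for 2-cell embryos, at 78 h for morulae and at 94 h for blastocysts. Expression is given as FPKM, the fragments of a gene scaled by transcript length and by the mapped fragments of the library.

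The factor eIF1A sits with eIF1 on the small ribosomal subunit, helps it to scan the mRNA for a start codon, and later helps eIF5B to join the large subunit. In mice, Eif1ax on the X chromosome and the autosomal Eif1a both encode eIF1A. Eif1ad encodes a different protein that carries an eIF1A domain and is known from late precursors of the small subunit. The Eif1a-like genes of chromosome 12 belong to the multicopy genes known for transient transcription in mouse 2-cell embryos and in 2-cell-like cells in culture.

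All positions are on mm10 (GRCm38), from the GENCODE M21 annotation. Eif1a (ENSMUSG00000057561.10) lies on chromosome 18 from 46597701 to 46616456, Eif1ax (ENSMUSG00000067194.6) on the X chromosome from 159372178 to 159389928, and Eif1ad (ENSMUSG00000024841.8) on chromosome 19 from 5366741 to 5371526, all on the plus strand.

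The others lie within 829 kb of chromosome 12. Gm8300 (ENSMUSG00000079034.2) starts at 87514316 and ends at 87518266, BB287469 (ENSMUSG00000079031.1) spans 87816577 to 87820676, Gm2016 (ENSMUSG00000072905.5) 87874072 to 87877859 and Gm2022 (ENSMUSG00000113971.1) 87895370 to 87895804, on the plus strand. Gm5662 (ENSMUSG00000079029.2) spans 88270640 to 88274500 on the minus strand. A search of the annotated proteins, asking for at least 40% identity over at least 80 residues, found 11 further relatives, and all of them lie in the same stretch of chromosome 12, from 87494721 to 88324026.

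The coding sequence of each chromosome 12 member is 432 bases long in 1 coding exon, whereas that of Eif1ax, also 432 bases, is spread over 7 coding exons. The longest annotated coding sequence of Eif1a is 762 bases in 3 coding exons, and the comparison below uses its annotated form of 432 bases. At the base level, the chromosome 12 members differ from Eif1ax at 65 to 71 of the 432 positions and from Eif1a at 21 to 27. Their translated products differ from that of Eif1ax at 9 to 14 of 144 residues, and Eif1a differs from Eif1ax at 2. Eif1a and Eif1ax themselves differ at 62 bases, most of which leave the protein unchanged. Eif1ad was outside this alignment, with a coding sequence of 510 bases in 5 coding exons. The stretch below, coding bases 61 to 150 counted from the A of the start codon, is shown because it holds 20 of the 60 positions at which the 5 chromosome 12 members share a base that Eif1ax lacks. Capitals mark every base that differs from Eif1ax.
Eif1ax: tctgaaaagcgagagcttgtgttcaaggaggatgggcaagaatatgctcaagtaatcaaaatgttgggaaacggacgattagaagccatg
Gm2016: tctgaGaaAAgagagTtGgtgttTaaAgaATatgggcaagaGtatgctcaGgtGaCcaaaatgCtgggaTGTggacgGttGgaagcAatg
Gm5662: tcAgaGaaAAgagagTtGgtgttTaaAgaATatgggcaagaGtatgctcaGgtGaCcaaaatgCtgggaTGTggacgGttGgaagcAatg
Gm8300: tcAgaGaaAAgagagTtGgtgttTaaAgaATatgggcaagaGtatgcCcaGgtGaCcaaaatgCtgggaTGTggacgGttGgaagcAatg
Gm2022: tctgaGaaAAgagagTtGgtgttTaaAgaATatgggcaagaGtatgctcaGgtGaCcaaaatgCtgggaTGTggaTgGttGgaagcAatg
BB287469: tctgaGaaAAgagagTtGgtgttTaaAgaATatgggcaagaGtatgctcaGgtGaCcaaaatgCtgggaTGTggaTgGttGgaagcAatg

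Of these 60 shared differences, 51 have the base of Eif1a. The chromosome 12 members vary among themselves at only 16 positions, 6 of which fall in the last 72 coding bases, 361 to 432, printed next with the same use of capitals. These bases encode the acidic C-terminal end of eIF1A.
Eif1ax: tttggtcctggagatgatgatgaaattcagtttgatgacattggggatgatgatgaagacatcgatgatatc
Gm2016: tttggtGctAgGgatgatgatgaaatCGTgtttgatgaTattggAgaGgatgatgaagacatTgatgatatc
Gm5662: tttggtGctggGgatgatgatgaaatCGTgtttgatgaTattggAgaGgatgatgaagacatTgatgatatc
Gm8300: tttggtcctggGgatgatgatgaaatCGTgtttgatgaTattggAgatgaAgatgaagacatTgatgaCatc
Gm2022: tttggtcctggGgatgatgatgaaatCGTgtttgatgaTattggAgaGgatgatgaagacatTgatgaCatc
BB287469: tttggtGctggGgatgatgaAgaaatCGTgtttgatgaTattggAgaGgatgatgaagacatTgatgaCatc

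In the orientation of each gene, the first of these stretches covers chr12:87876645-87876734 for Gm2016, chr12:88271839-88271928 (minus strand) for Gm5662, chr12:87516957-87517046 for Gm8300, chr12:87895430-87895519 for Gm2022 and chr12:87819381-87819470 for BB287469. The second covers chr12:87876945-87877016, chr12:88271557-88271628 (minus strand), chr12:87517257-87517328, chr12:87895730-87895801 and chr12:87819681-87819752 in the same order. Such likeness bears on the counts of reads. Of all 150-base stretches of the annotated transcripts, the length of 1 read, 88.1% of those of BB287469 also occur in transcripts of other genes, 43.7% of those of Gm2016, 40.3% of those of Gm5662, 19.9% of those of Gm2022 and 2.96% of those of Gm8300. BB287469 and its relative Gm4027 have the same coding sequence throughout. For Eif1a, Eif1ax and Eif1ad this share was 0%. How reads that match several of these genes were assigned is not given in the sources used here, so the value of a single chromosome 12 gene is uncertain. For Eif1a, Eif1ax and Eif1ad the longest transcript held no exact match of that length. Shorter or inexact matches were not looked for.

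RefSeq promoters on GRCm38.p6, 250 bases before to 50 after the start, were at hand for 3 of the 8 members. Those of BB287469 and Eif1ax are printed because the genes moved in opposite directions, both from 2-cell embryos to morulae and after KD in blastocysts. In the promoter of BB287469 (chr12:87816327-87816626, plus strand), capitals mark the motif TATATA, which begins 30 bases before the start. In that of Eif1ax (chrX:159371928-159372227, plus strand), capitals mark GGGCGG on either strand.
BB287469: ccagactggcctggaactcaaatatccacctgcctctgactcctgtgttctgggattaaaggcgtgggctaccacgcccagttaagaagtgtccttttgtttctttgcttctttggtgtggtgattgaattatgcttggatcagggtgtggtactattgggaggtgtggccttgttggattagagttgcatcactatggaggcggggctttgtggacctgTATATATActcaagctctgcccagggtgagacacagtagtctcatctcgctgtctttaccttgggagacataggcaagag
Eif1ax: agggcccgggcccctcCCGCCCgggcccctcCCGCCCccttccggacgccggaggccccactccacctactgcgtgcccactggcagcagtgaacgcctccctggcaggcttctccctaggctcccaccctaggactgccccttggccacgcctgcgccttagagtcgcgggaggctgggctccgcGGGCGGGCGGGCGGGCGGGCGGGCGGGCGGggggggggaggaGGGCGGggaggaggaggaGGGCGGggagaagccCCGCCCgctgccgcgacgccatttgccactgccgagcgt

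TATATA, a motif that reads the same on both strands, occurs in 5.67% of all 32851 promoters of this length and in 3 of the 5 chromosome 12 promoters that were at hand. GGGCGG occurs in 35.7% of all promoters and in 1 of those 5. The GC content was 49.3% for BB287469 and 78% for Eif1ax, beside a median of 52.7% over all promoters.

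H2afz, the targeted gene, was checked in every library. It lay between 905 and 1244 FPKM in control and between 112 and 415 in KD 2-cell embryos, between 1158 and 1511 against 25.7 and 30.3 in morulae, and between 1945 and 2656 against 53.2 and 67.2 in blastocysts, with no overlap at any stage. The 2-cell markers Zscan4c, Zscan4d and Zfp352 summed to 142 to 196 FPKM in control 2-cell libraries and to at most 3.36 in control morulae and 0.785 in control blastocysts. Oocyte markers (Gdf9, Bmp15, Zp2, Zp3, Oosp1) summed to 743 to 1003 FPKM in control 2-cell embryos, to 4.77 to 10.2 in control morulae and to 1.81 to 2.49 in control blastocysts. Of 6 cumulus and granulosa markers, 2 to 5 were at 0 throughout a group, and their sum stayed at or below 18.4 FPKM in every library. The part of maternal RNA in the results was not tested. In pooled embryos, fewer cells of a type and less RNA per cell cannot be told apart. The labels do not say whether libraries of a group came from separate matings, so the p-values measure the spread between these libraries.

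From the 2-cell to the morula stage of control embryos, Eif1a and Eif1ax rose and the chromosome 12 genes fell. Eif1a read 32.6, 32.5, 39.6 and 42.2 FPKM in the control 2-cell libraries (replicates 1, 2, 4 and 5) and 115.5, 135, 137 and 135 in control morulae (replicates 1, 2, 7 and 8). Its log2 fold change was 1.80 (SE 0.16, adjusted p = 6.4e-07). All 8 members were compared with limma on log2(FPKM + 1) after scaling between libraries, with Benjamini-Hochberg adjustment over all genes tested, and an adjusted p under 0.05 is called passing the test below, with DEGs also having an absolute log2 fold change above 1.

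Eif1ax, the X-linked copy, read 19.6, 17.8, 13.2 and 12.1 FPKM in control 2-cell embryos and 33.6, 47.8, 52.8 and 45.1 in control morulae, a log2 fold change of 1.46 (SE 0.24, adjusted p = 0.000128). Eif1ad rose from 31.3 ± 6.30 FPKM to 60.4 ± 4.14 (SD, n = 4 each), by 0.94 on the log2 scale (SE 0.19, adjusted p = 0.000538). The 2-cell and morula values of these 3 genes did not overlap, as for 77.2% of all genes tested, counting both directions.

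Among the chromosome 12 genes, Gm2016 read 128.5, 118, 73.0 and 70.8 FPKM in control 2-cell embryos and 7.64, 2.70, 10.2 and 4.05 in control morulae. Gm8300 read 79.6, 52.1, 59.3 and 50.6 FPKM at the 2-cell stage and 1.87, 0.833, 2.16 and 2.22 in morulae. Every 2-cell value of either gene lay far above every morula value. Gm8300 had the largest fall of the 8 members, a log2 fold change of -4.49 (SE 0.23, adjusted p = 6.46e-09). On the scale of FPKM + 1 this fall is 22.4-fold. Gm5662 had the smallest among the chromosome 12 members, -3.50 (SE 0.31, adjusted p = 5.05e-07), and Gm2016 (-3.87), Gm2022 (-4.06) and BB287469 (-3.68) lay between. In this comparison 3 of 8 members rose and 5 fell, beside 83.3% of all 13655 genes tested that passed in either direction. Of the members 2 and 5 were DEGs in these directions, beside 32.3% and 30.3% of all genes. All 5 chromosome 12 members and all 11 of their relatives were DEGs with lower values in morulae, with a median log2 fold change of -3.87 over the members and -3.86 over the relatives, beside 0.097 over all genes tested. In the 2-cell libraries each of these members had an FPKM of at least 1, so the filter on low values was passed at the stage where they were high. The relatives that passed it through their 2-cell libraries alone include Gm2056 (0.106 to 0.506 FPKM in control morulae), Gm21319 (0.0264 to 0.106) and Gm6803 (under 0.5 in 3 of 4 control morulae), so that the counts over members and relatives are a description.

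**Figure D1:**
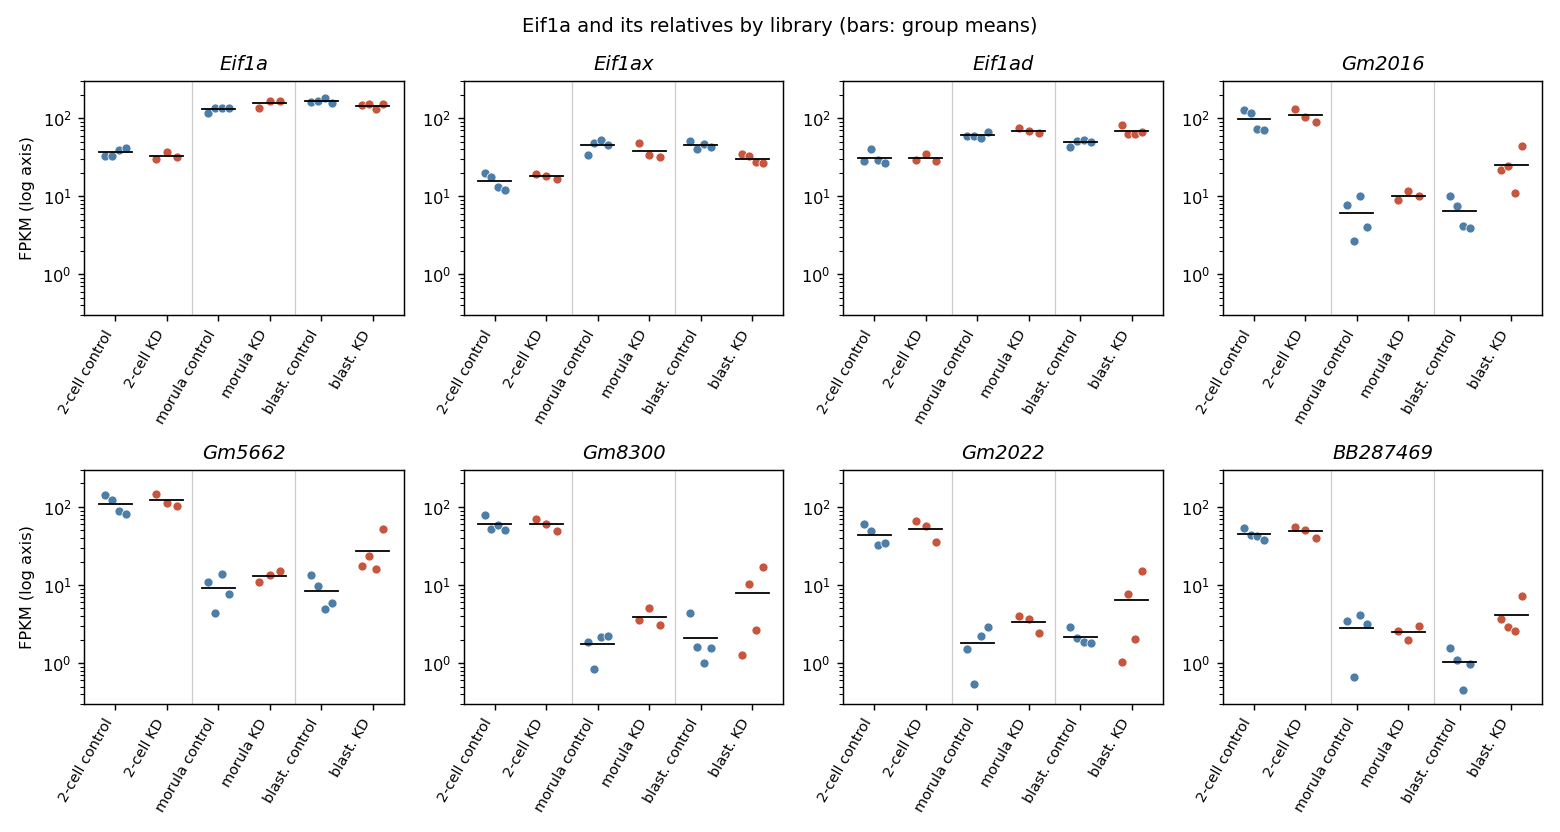
FPKM of the 8 genes in each of the 22 libraries, on a log axis, by stage and condition. Points are libraries in the order of their replicate numbers (blue, control; red, KD) and bars are group means. The 5 chromosome 12 genes lie at 32.8 to 148 FPKM in 2-cell libraries and at 0.456 to 51.9 FPKM later, while Eif1a, Eif1ax and Eif1ad are lower in control 2-cell embryos than in control morulae.

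The order of the levels between genes, in FPKM and so per transcript length, changed between stages. For the chromosome 12 genes the order is as uncertain as the assignment of their shared reads. In control 2-cell embryos it ran from Gm5662 (108 ± 27.7 FPKM, SD, n = 4) and Gm2016 (97.5 ± 29.9) through Gm8300 (60.4 ± 13.3), BB287469 (44.4 ± 6.93), Gm2022 (44.1 ± 13.0), Eif1a (36.7 ± 4.93) and Eif1ad (31.3 ± 6.30) down to Eif1ax (15.6 ± 3.62). The libraries of neighbours in this order overlapped, except those of Eif1ad and Eif1ax. In control morulae Eif1a led at 130.4 ± 10.0 FPKM, ahead of Eif1ad (60.4 ± 4.14) and Eif1ax (44.8 ± 8.12), none of which overlapped its neighbour, and Gm5662 (9.16 ± 4.07), Gm2016 (6.15 ± 3.41), BB287469 (2.84 ± 1.51), Gm2022 (1.78 ± 1.00) and Gm8300 (1.77 ± 0.642) followed with overlapping libraries. Control blastocysts had Eif1a at 166 ± 11.5 FPKM, Eif1ad at 49.4 ± 4.51 and Eif1ax at 45.4 ± 4.50, the latter pair overlapping. The chromosome 12 members lay there between 8.45 ± 3.82 (Gm5662) and 1.02 ± 0.453 FPKM (BB287469).

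Between control morulae and control blastocysts, 2 of 8 members passed the test, both lower in blastocysts, and 0 were DEGs, beside 28.8% of 11849 genes that passed in that direction and 26.4% that were DEGs in either. The same 2 had an unadjusted p under 0.05 in limma, as 61.2% of all genes did, counting both directions. Eif1ad changed by -0.37 (SE 0.14, adjusted p = 0.0347), and its blastocyst values of 43.1 to 53.4 FPKM lay below the morula values of 55.6 to 65.7. BB287469 changed by -0.88 (SE 0.32, adjusted p = 0.0365), from 3.48, 0.654, 4.09 and 3.14 FPKM in morulae to 1.56, 1.09, 0.456 and 0.977 in blastocysts. The groups overlapped through morula replicate 2. BB287469 had an FPKM of at least 1 in 3 of 4 control morulae and in 2 of 4 control blastocysts. It thus needed morula libraries to pass the filter on low values, and its call is a description. At least 1 of these 2 calls was lost without any 1 of the 8 libraries. Eif1a was higher in every control blastocyst (156 to 182 FPKM) than in every control morula (115.5 to 137), but its scaled log2 fold change of 0.26 (SE 0.15, adjusted p = 0.158) did not pass. It passed with FPKM as deposited (0.35, adjusted p = 0.024) and with all 6 groups in one fit (0.36, adjusted p = 0.0297), and under these settings Eif1ad did not pass (adjusted p = 0.0706 and 0.135). BB287469 did not pass with a pseudocount of 0.1 (adjusted p = 0.0533) or without the filter on low values (0.149). Of all genes tested, 27.8% were higher and 22.8% lower in blastocysts without overlap.

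At the 2-cell stage, the KD left no member past the test. Gm2016 read 130.4, 105 and 90.9 FPKM in KD replicates 1, 2 and 4, within the 70.8 to 128.5 of the controls but for the highest library. Eif1a read 30.1, 36.5 and 31.8 FPKM after KD, against 32.5 to 42.2 in controls. All 8 members had overlapping groups, where 2.65% of the 12160 genes tested were higher and 4.13% lower in KD without overlap. Log2 fold changes ran from -0.09 (Eif1a) to 0.32 (Gm2022, 95% interval -0.28 to 0.92), with a median of 0.219 over the members and 0.004 over all genes. In limma, 0 of 8 members passed beside 0% of all genes, and 0 members had an unadjusted p under 0.05, as 701 of all genes did. H2afz did not pass at this stage either (log2 fold change -2.53, SE 0.38, adjusted p = 0.544), although its groups did not overlap.

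In part of the members, the spread within 2-cell groups went with the replicate numbers. In control embryos Gm2016 averaged 123 FPKM in replicates 1 and 2 and 71.9 in replicates 4 and 5, and after KD it averaged 118 in replicates 1 and 2 and read 90.9 in replicate 4. The log2 ratio of KD to control was -0.07 within the low and 0.33 within the high numbers. Eif1ax went the same way, at 18.7 and 12.6 FPKM in the low and the high control numbers, and Eif1a the other way, at 32.6 and 40.9, though after KD it read 33.3 and 31.8. Gm8300 did not separate by number in controls, since replicate 2 (52.1 FPKM) lay below replicate 4 (59.3). What the numbers stand for is not given in the labels, and their part in the results was not tested beyond the fits with the range of numbers as a batch and with the number as a block.

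In KD morulae, 1 of 8 members passed the test and 0 were DEGs, beside 13.3% and 3.59% of the 10989 genes tested, and 4.22% of them rose. Gm8300 read 1.87, 0.833, 2.16 and 2.22 FPKM in control morulae and 3.54, 5.11 and 3.10 in KD replicates 1, 2 and 6. Every KD library lay above every control library, and the log2 fold change was 0.93 (SE 0.23, adjusted p = 0.0277). This call was lost without control replicate 2 (adjusted p = 0.0532), KD replicate 1 (0.0632) or KD replicate 2 (0.117) and held without each of the other 4 libraries. It was also lost without the filter on low values (adjusted p = 0.133) and with all 6 groups in one fit (0.203). Inner cell mass markers (Pou5f1, Nanog, Sox2) summed to 118.5 to 165 FPKM in control and 31.4 to 49.0 in KD morulae, blood markers (Hbb-bs, Hba-a1, Ptprc) to 1.16 to 3.63 and 4.23 to 7.77 with 2 of the 3 at 0 in either group, and their part in the result was not tested.

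The other chromosome 12 members did not pass in morulae. Gm2016 read 9.09, 11.6 and 9.95 FPKM after KD, against 2.70 to 10.2 in controls, with a log2 fold change of 0.89 (SE 0.32, adjusted p = 0.0927). The highest control, replicate 7, reached into the KD range. Gm2022 (0.79, adjusted p = 0.105) and Gm5662 (0.69, adjusted p = 0.151) had like values, and BB287469 (0.07, SE 0.34) was near 0. By limma without adjustment, 6 of 8 members had a p under 0.05, all with higher values in KD. Of all genes tested, 30.5% had such a p, counting both directions. The chromosome 12 members share read-length stretches, so they are not separate observations. Eif1a was the other member whose groups did not overlap, at 137, 166 and 165 FPKM after KD against 115.5 to 137 in controls. Its change of 0.38 (SE 0.17, adjusted p = 0.154) did not pass. Of all genes tested, 6.70% were higher in KD without overlap. Eif1ax read 47.8, 33.8 and 31.7 FPKM after KD, and its change of -0.12 (SE 0.22) had an interval from -0.60 to 0.35.

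In KD blastocysts, 3 chromosome 12 genes were DEGs with higher values, Eif1ad rose and Eif1ax fell. Of the 8 members, 4 rose and 1 fell, and 3 were DEGs. Among the 11828 genes tested, 16.7% rose, 19.8% fell and 13.9% were DEGs. The median log2 fold change was 1.28 over the 5 chromosome 12 members and 0.005 over all genes. That median is the value of BB287469, which needed KD libraries to pass the filter on low values. These counts over members and the median are therefore a description. The paper reports that far fewer KD than control embryos formed blastocysts. How the KD embryos of these libraries were chosen at 94 h is not given. The part of such a choice, or of a delay, in the results was not tested.

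Gm2016 read 10.2, 7.56, 4.13 and 3.97 FPKM in control blastocysts (replicates 1, 4, 5 and 6) and 21.4, 24.8, 11 and 43.5 in the KD blastocysts of the same numbers. No KD library reached down to the controls, with KD replicate 5 lowest and KD replicate 6 highest. The log2 fold change was 1.75 (SE 0.40, adjusted p = 0.00502), or 3.36-fold on the scale of FPKM + 1.

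Gm5662, whose coding sequence differs from that of Gm2016 at 4 bases, read 13.3, 9.66, 4.91 and 5.94 FPKM in control and 17.7, 23.7, 15.8 and 51.9 in KD blastocysts. The groups did not overlap either, though control replicate 1 came close to KD replicate 5. Its log2 fold change was 1.51 (SE 0.38, adjusted p = 0.00885). BB287469 read 1.56, 1.09, 0.456 and 0.977 FPKM in control and 3.66, 2.94, 2.58 and 7.33 in KD blastocysts, a log2 fold change of 1.28 (SE 0.28, adjusted p = 0.00381). Only 2 of its 4 control libraries had an FPKM of at least 1, so it passed the filter through the KD libraries. These 3 calls held without any 1 of the 8 libraries, with adjusted p up to 0.0265, but without the filter on low values Gm2016 (adjusted p = 0.0566) and Gm5662 (0.0784) did not pass. The levels stayed below those of the 2-cell stage, where Gm2016 averaged 97.5 FPKM.

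Gm8300 and Gm2022 had a wide spread in KD blastocysts. Gm8300 read 4.34, 1.62, 0.988 and 1.55 FPKM in control and 1.26, 10.3, 2.65 and 17.2 in KD blastocysts. Gm2022 read 2.92, 2.08, 1.88 and 1.79 FPKM in control and 1.04, 7.78, 2.04 and 15.1 in KD blastocysts. In both genes KD replicate 1 lay within or below the controls and KD replicate 6 lay far above them. Their log2 fold changes of 1.14 (SE 0.57, adjusted p = 0.138) and 0.80 (SE 0.52, adjusted p = 0.252) did not pass, and with 1 library left out at a time they ranged from 0.64 to 1.63 for Gm8300 and from 0.28 to 1.26 for Gm2022. The lowest values came without KD replicate 6 and the highest without KD replicate 1, where Gm8300 passed (adjusted p = 0.0357). In that library the FPKM of Gm2016 was 16.9 times that of Gm8300, whereas this ratio was 2.42 to 4.15 in the other KD blastocysts and 2.35 to 4.67 in the controls.

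Eif1ax and Eif1a, the genes of eIF1A itself, were lower in every KD blastocyst. Eif1ax read 50.7, 40.4, 47.2 and 43.4 FPKM in control and 35.3, 33.0, 27.1 and 26.5 in KD blastocysts. The groups did not overlap, and the log2 fold change was -0.56 (SE 0.19, adjusted p = 0.0346). This call was lost without control replicate 1, 5 or 6 or KD replicate 5 or 6 (adjusted p between 0.0543 and 0.103), and without the filter on low values (0.0913). Eif1a read 160.2, 166, 182 and 156 FPKM in control and 146, 151, 131 and 152 in KD blastocysts. Although these groups did not overlap, the scaled change of -0.19 (SE 0.15, adjusted p = 0.375) did not pass.

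Eif1ad, the gene of the eIF1A domain protein, read 43.1, 51.6, 53.4 and 49.3 FPKM in control and 81.7, 63.8, 63.6 and 66.4 in KD blastocysts. KD replicate 1 was highest and no groups overlapped, with a log2 fold change of 0.48 (SE 0.16, adjusted p = 0.0344). The call held without KD replicate 5 (adjusted p = 0.0159) and was lost without any 1 of the other 7 libraries, with adjusted p of 0.0567 to 0.0895, and it was also lost without the filter on low values (0.0553). Over the 8 members, 4 were higher and 2 lower in KD without overlap of the libraries, as 14.6% and 20.0% of all genes tested were.

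**Figure D2:**
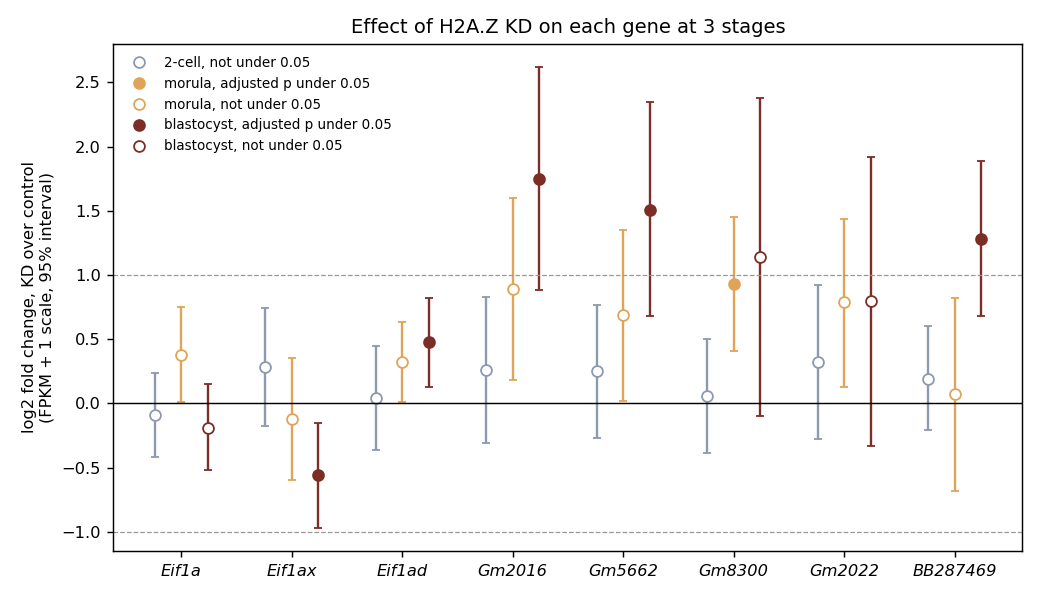
Log2 fold change of KD over control for each gene, with its 95% interval, in 2-cell embryos, morulae and blastocysts. Filled points have an adjusted p under 0.05 (limma) and dashed lines mark the fold-change threshold for DEGs. Filled points are Gm8300 in morulae and Gm2016, Gm5662, BB287469, Eif1ad and Eif1ax in blastocysts, Eif1ax alone below 0.

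Whether the KD effect differed between blastocysts and morulae was tested as an interaction over the 4 groups. By limma, 0 of 8 members passed, beside 11.7% of 12727 genes, and 2 members had an unadjusted p under 0.05, as 27.3% of all genes did. These were Eif1a (-0.61, SE 0.22, adjusted p = 0.0816), at 130.4 and 156 FPKM in control and KD morulae against 166 and 145 in blastocysts, and BB287469 (1.17, SE 0.47, adjusted p = 0.118). For Gm2016 the difference was 0.81 (95% interval -0.41 to 2.04). For the 8 members, the calls in blastocysts are therefore not shown to differ from those in morulae.

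The 11 relatives on chromosome 12 were measured in the same libraries. In blastocysts 8 of them could be tested, 5 rose with KD and 4 were DEGs, beside 16.7% and 6.10% of all genes. The DEGs were Gm4027 (1.50, SE 0.30, adjusted p = 0.00232), Gm8332 (1.38, SE 0.47, adjusted p = 0.0353), Gm21936 (1.22, SE 0.32, adjusted p = 0.0105) and Gm5788 (1.17, SE 0.25, adjusted p = 0.00324), and Gm2075 (0.96, adjusted p = 0.0239) passed as well. Gm21936 lay between 0.556 and 0.773 FPKM in the controls and reached an FPKM of 1 in 3 KD libraries only, so it entered the test through the group where it was high. Gm4027 and Gm2075 also needed KD libraries to pass the filter, with an FPKM of at least 1 in 2 and 1 of the 4 controls, so the counts are a description. Gm4027 read 2.13, 1.20, 0.645 and 0.901 FPKM in control and 4.93, 3.94, 3.43 and 9.62 in KD blastocysts, an order of libraries like that of BB287469, with which it shares its coding sequence. Gm5788 read 1.74, 1.80, 1.38 and 1.64 FPKM in control and 6.41, 6.10, 2.71 and 5.13 in KD blastocysts. Gm16368 (0.19), Gm2035 (0.74) and Gm5039 (-0.16) did not pass, and Gm2056, Gm6803 and Gm21319 were under the filter on low values. In morulae 1 of the 8 tested relatives passed, Gm8332 (0.98, SE 0.27, adjusted p = 0.0413), beside 13.3% of all genes. In the interaction 1 of the 9 tested relatives passed, Gm5788 (1.08, SE 0.34, adjusted p = 0.0487), beside 11.7% of all genes.

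**Figure D3:**
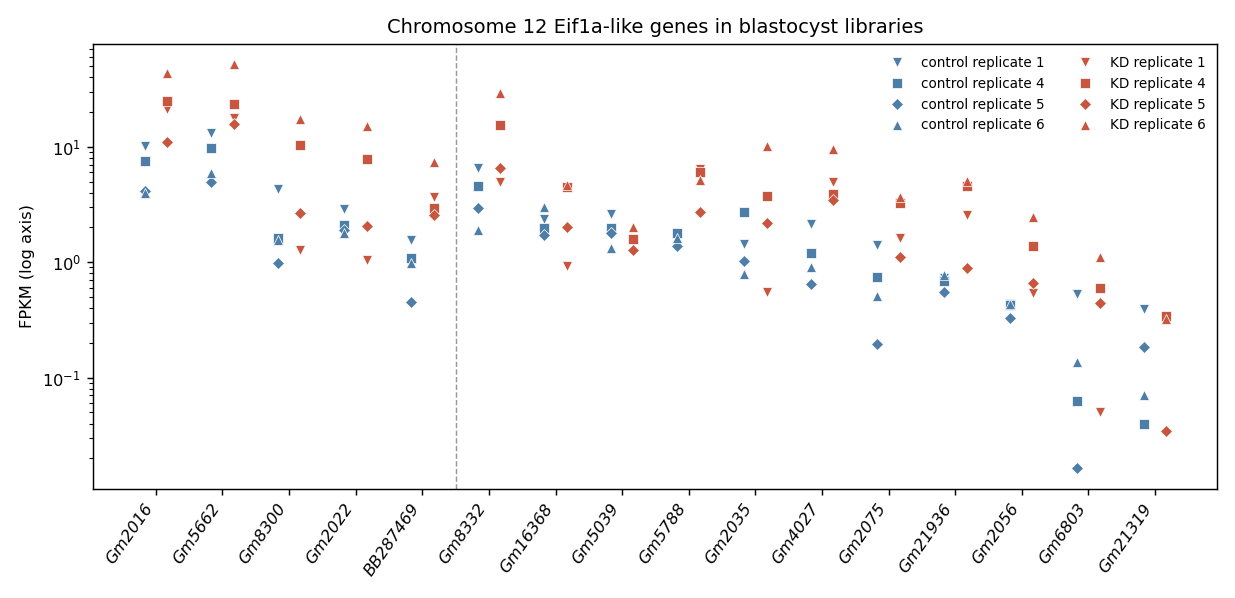
FPKM of the 16 chromosome 12 Eif1a-like genes in the 4 control (blue) and 4 KD (red) blastocyst libraries, on a log axis, with a symbol for each replicate number. The 5 members stand left of the dashed line. KD replicate 6 is the highest library for each of the 5 members, and KD replicate 1 is the lowest KD library for Gm8300 and Gm2022 but not for Gm2016.

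Summed over all 16 chromosome 12 genes, the level was 856 ± 190.5 FPKM in control 2-cell embryos, 42.7 ± 14.1 in control morulae and 34.9 ± 13.5 in control blastocysts (SD, n = 4 each). Eif1a and Eif1ax together went from 52.4 ± 1.65 to 175 ± 17.9 and 211 ± 12.9 FPKM. The chromosome 12 genes thus held 94.0 ± 1.32% of the summed FPKM of these 18 genes in control 2-cell embryos, 19.4 ± 5.60% in control morulae and 14.1 ± 4.77% in control blastocysts. After KD the share was 94.7 ± 0.895% (n = 3), 23.8 ± 1.84% (n = 3) and 36.5 ± 12.9% (n = 4). In KD blastocysts it read 27.7, 38.4, 25.9 and 53.9%, above the 9.15 to 20.0% of the controls in each library. The FPKM ratio of Eif1a to Eif1ax was 3.68 ± 0.404 in control and 4.82 ± 0.673 in KD blastocysts, with ranges of 3.16 to 4.10 and 4.13 to 5.73, close but apart. These sums and ratios are descriptions of the members, and no test was made on them.

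**Figure D4:**
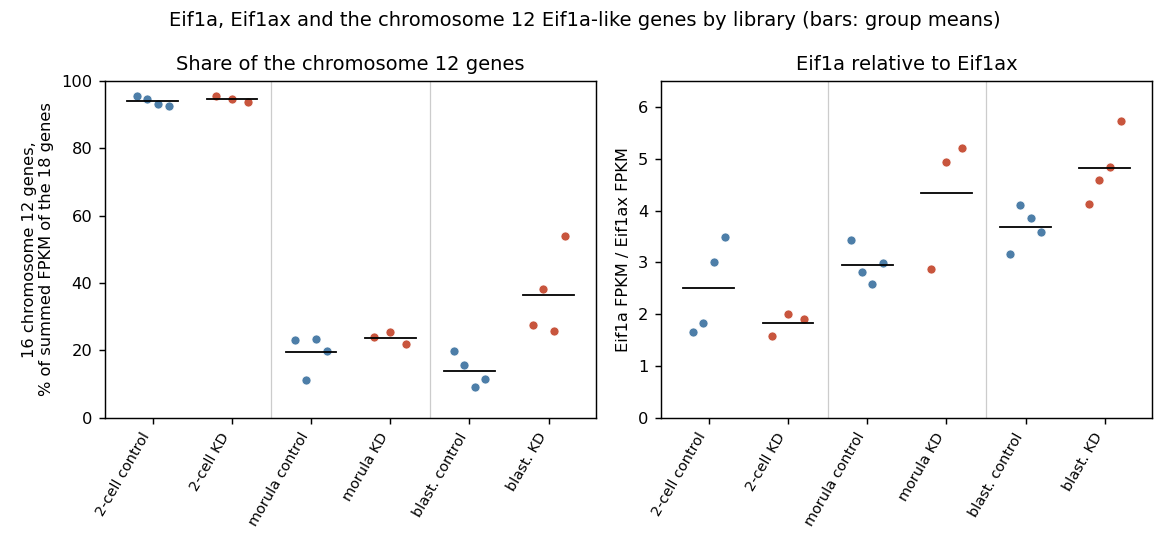
Left, share of the 16 chromosome 12 genes in the summed FPKM of these genes, Eif1a and Eif1ax, in percent. Right, FPKM of Eif1a over that of Eif1ax. Points are libraries in the order of their replicate numbers (blue, control; red, KD) and bars are group means. The share is above 92% in every 2-cell library, at most 25.5% in every morula library, and higher in each KD blastocyst library than in the controls.

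Partners of eIF1A at the ribosome were taken as a list of 27 genes for initiation factors and related proteins, chosen with earlier results of these data known. In KD blastocysts 10 of the 27 rose and 2 fell, beside 16.7% and 19.8% of all genes, with a median log2 fold change of 0.382. Of the 27, 3 and 1 were DEGs in these directions, beside 6.10% and 7.76% of all genes. Eif1, whose product binds next to eIF1A, read 143, 226, 306 and 245 FPKM in control and 513, 361, 645 and 510.0 in KD blastocysts, without overlap, and rose by 1.17 (SE 0.20, adjusted p = 0.00103). Eif5, the activator of the GTPase step, rose by 1.01 (SE 0.18, adjusted p = 0.00111), from 136 to 232 FPKM in control libraries to 323 to 435 in KD libraries. Eif5b, the subunit-joining factor, rose by 0.61 (SE 0.15, adjusted p = 0.00824) and Eif1b by 0.50 (SE 0.16, adjusted p = 0.0242). The third DEG that rose was Eif6 (1.38), which keeps the large subunit from joining early. Those that fell were Mcts1 (-0.92), a reinitiation factor, and the Y-linked Eif2s3y (-1.81), an eIF2 subunit gene. The sex of the pooled embryos is not given. Its part in the values of Eif2s3y and of the X-linked Eif1ax was not tested. Eif6, Mcts1, Eif2s3y and Eif3a were picked for naming after their values were seen. In morulae 1 of the 27 rose, Eif3a (0.51), and 1 fell, Mcts1 (-1.03), beside 13.3% of all genes that passed in either direction, and at the 2-cell stage 0 passed beside 0% of all genes.

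In control embryos the partners were followed over the same steps. From control 2-cell embryos to morulae 20 of the 27 rose and 2 fell, beside 83.3% of all genes that passed in either direction, with a median log2 fold change of 1.28. From control morulae to blastocysts 0 rose and 15 fell, beside 28.8% of all genes that fell, with a median of -0.522. Eif5 rose by 0.59 (adjusted p = 0.00796) and then fell by 1.53 on the log2 scale (adjusted p = 1.72e-05), and Eif1 had 0.08 (adjusted p = 0.64) and then -0.88 (adjusted p = 0.00174).

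A list of 27 other genes drawn up for transient 2-cell transcription, 25 of them in the table, was set beside the chromosome 12 genes. From control 2-cell embryos to morulae 19 of the 22 tested fell and 3 rose, namely Pramel6 (3.18), Pramel7 (2.05) and Tdpoz2 (0.63), which were named after their values were seen. A fall is what the list was chosen for, and some of its genes needed 2-cell libraries to pass the filter. This count is therefore a description. Of all genes, 83.3% passed in either direction. In blastocysts 10 of them passed the filter on low values, and 7 of these rose with KD and 0 fell, 5 of them as DEGs, beside 16.7% and 6.10% of all genes that rose. The median log2 fold change was 1.15, and Pramel7 (0.69) was among the 7. These counts and this median cover only the genes past the filter, some of which passed it through KD libraries, and are a description. In morulae 3 of 13 tested rose and 0 fell, beside 4.22% of all genes that rose, and in 2-cell embryos 0 of 24 passed, beside 0% of all genes. Zfp352 read 0.279, 0.772, 0.0826 and 0.348 FPKM in control and 1.91, 5.02, 1.52 and 4.65 in KD blastocysts (1.57, SE 0.29, adjusted p = 0.00156), so that it entered the test through the KD libraries alone. Zscan4c and Zscan4d stayed at or under 0.304 FPKM in every blastocyst library and were under the filter. KD replicates 4 and 6 were the higher libraries for Zfp352, as for Gm8300 and Gm2022. Trophectoderm markers (Cdx2, Gata3, Krt8, Krt18, Eomes) summed to 981 to 1468 FPKM in control and 571 to 765 in KD blastocysts, blood markers to 0.612 to 1.79 and 2.09 to 3.71, and inner cell mass markers to 109 to 218.5 and 135 to 274. The part of these cell types in the results was not tested.

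The genes most like the members in pattern were those with the highest Pearson correlation of log2(FPKM + 1) over the 22 libraries, among 15678 genes. For the mean of the chromosome 12 members these were Gm5542 (r = 0.979), Prex2 (0.978), Gm4850 (0.976), Gm48578 (0.975) and Gm4971 (0.975). Prex2, a guanine nucleotide exchange factor for Rac, averaged 18.4 FPKM in 2-cell, 0.614 in morula and 0.853 in blastocyst libraries. For Eif1a they were Creg1 (0.992), Cd9 (0.991), Gm2962 (0.991) and the proteasome subunit genes Psmc4 (0.990) and Psmc6 (0.989). For Eif1ax they were Pfdn5 (0.958), Gins1 (0.949), Hspb11 (0.946), Gm7658 (0.941) and Hsd17b10 (0.940), and for Eif1ad Dnmt3l (0.969), Gm6344 (0.963), Rfk (0.961), Szrd1 (0.960) and Slc35b2 (0.959). The points are libraries of 3 stages and both conditions, which all of these genes share, and the correlations are a description.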

How the data were processed

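The 22 libraries were made with Smart-seq2 from polyadenylated RNA, amplified for 16 to 18 cycles and read as pairs of 150 bases. The authors aligned reads to mm10 with STAR and deposited FPKM per gene from StringTie 2.1.4, and these are normalised for depth and length. They counted reads with featureCounts 1.6.2 for DESeq2 1.30.1, and those counts were not used here. How reads matching several genes were assigned is not given in the sources used here. The depth is unknown: over 13491 single-exon genes, 15.1 to 29.6% of low values fell within 0.03 of a whole step between libraries, too few to recover reads.

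Here FPKM were divided by median-of-ratios factors (0.873 to 1.17), and log2(FPKM + 1) was fitted with limma 3.58.1 in R 4.3.3 (intensity trend, only the groups compared, no covariate), for genes that reached an FPKM of 1 in 3 or more of the libraries entering. P-values were adjusted by Benjamini-Hochberg over all genes tested. The threshold was an adjusted p of 0.05, and DEGs also had an absolute log2 fold change above 1. Fold changes on this scale understate those of low genes. On simulated data, 93.5 to 98.0% of 200 genes changed by 2 on the log2 scale were recovered. The changed genes were drawn above a minimum level, with normal noise. This share thus does not cover genes as low as Gm8300, Gm2022 and BB287469 in control morulae and blastocysts. Nor does it cover comparisons with few changed genes, such as KD in 2-cell embryos, where H2afz at -2.53 did not pass (limma, adjusted p = 0.544).

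Members were matched by symbol, and the members and gene lists were chosen with earlier results of these data known. The rule for named genes took the members, the relatives on chromosome 12, Eif1, Eif1b, Eif5, Eif5b, Zscan4c, Zscan4d, Zfp352, the targeted H2afz, marker genes and the 5 genes most similar to each of 4 patterns. Other genes named with a value were picked after their values were seen. Relatives were found with BLAST+ 2.17.0 among 21614 translated GENCODE coding sequences. Of the 55335 table genes, 54587 matched GENCODE M21 by identifier and version. Alternatives were the FPKM as deposited, a pseudocount of 0.1, no filter, one fit over all groups, the replicate number as a block, each library left out, and, chosen after seeing the data, low against high replicate numbers as a batch term.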

Additional observations from a re-analysis of the deposited data

Results flagged for a closer look

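Among the 32 sets of 4 libraries (8 genes in 4 groups) in which a single far library was looked for, 2 held one, where chance alone gives about 1 in 20. Eif1a read 115.5 FPKM in control morula replicate 1, below the 135 to 137 of the other 3 control morulae, and the gap took 0.904 of the range of the group. Eif1ad read 81.7 FPKM in KD blastocyst replicate 1, above the 63.6 to 66.4 of the other 3, with a gap of 0.843 of the range. Both gaps exceed Dixon's 95% critical value for 4 libraries. Without KD blastocyst replicate 1 the log2 fold change of Eif1ad was 0.36 (limma, adjusted p = 0.0895).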

How the results depend on the processing

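Of the alternative values computed for 66 results, 840 of 968 kept direction and side of the threshold (or, for counts, stayed within 1.5 times). For the others the cause was not tested. Counts of members passing and of member DEGs, and of DEGs over all genes, moved as follows. With a pseudocount of 0.1, morulae had 1 member DEG and 790 DEGs in all, blastocysts had 2479 DEGs, and 1 member passed between control blastocysts and morulae. Without the filter on low values, morulae had 0 members passing and 171 DEGs, blastocysts had 1 member passing and 1 member DEG (BB287469), control blastocysts against morulae had 1 member passing, and the interaction had 576 DEGs. With all groups in one fit, 2-cell embryos had 9 DEGs, morulae had 0 members passing and the interaction 1 (Eif1a, -0.63, adjusted p = 0.0457), as with low against high replicate numbers as a batch term (-0.65, adjusted p = 0.0406), where 1 passed.

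Replicate numbers are not shown to pair the libraries: same-numbered control and KD libraries had correlations of their deviations of 0.015 to 0.214 in 2-cell embryos (3 pairs), 0.096 to 0.178 in morulae (2) and -0.109 to 0.355 in blastocysts (4). The range of the numbers was shared more clearly: in morulae all 6 pairs within the low or the high numbers had 0.096 to 0.345 and all 6 across them -0.273 to -0.094, in 2-cell embryos -0.021 to 0.214 and -0.236 to 0.01, whereas in blastocysts the ranges overlapped. With a replicate block, morulae had 4 members passing and 3 member DEGs, with Gm2016 at 1.14 (adjusted p = 0.000348), Gm5662 at 0.86 (0.00827) and Gm2022 at 1.39 (1.63e-05). Only numbers 1 and 2 occur in both morula groups, so each other morula library took a term of its own. The KD effect of that fit thus came from 2 pairs alone, too few to rely on its p-values. For Gm2022 the log2 ratio of KD to control was 1.29 within the low and -0.05 within the high numbers. Control blastocysts and morulae share too few numbers for a block.

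The sign turned for small changes. In 2-cell embryos Eif1ad had -0.02 with FPKM as deposited, -0.03 with the replicate block and -0.00 with the batch term, and Gm8300 -0.01 and -0.02 with the former pair. In morulae BB287469 had -0.02 as deposited and Eif1ax 0.16 with the block. Between control blastocysts and morulae Eif1ax had 0.03 as deposited and 0.05 in one fit. In the interaction Gm2022 had 0.09 as deposited and Gm8300 -0.22 with the block. FPKM as deposited moved the median of all genes in the interaction from -0.008 to 0.111.

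Leaving out 1 library at a time gave ranges. DEGs over all genes were 0 to 3 in 2-cell embryos, 322 to 527 in morulae, 1437 to 1812 in blastocysts, 8318 to 8541 between control morulae and 2-cell embryos, 2990 to 3235 between control blastocysts and morulae, and 754 to 1161 in the interaction. Members passing were 0 to 2, 3 to 5, 8 to 8, 0 to 1 and 0 to 1 in the last 5 of these, and member DEGs 0 to 2, 3 to 4, 7 to 8, 0 to 1 and 0 to 1. In 2-cell embryos Eif1ad ranged from -0.03 to 0.18 and Gm8300 from -0.07 to 0.22, and in morulae BB287469 from -0.29 to 0.25. Between control blastocysts and morulae Eif1ax ranged from -0.24 to 0.03, Gm2016 from -0.23 to 0.31, Gm5662 from -0.44 to 0.06, Gm8300 from -0.27 to 0.26 and Gm2022 from -0.07 to 0.41, and in the interaction Gm8300 from -0.33 to 0.64 and Gm2022 from -0.54 to 0.42. The interaction of BB287469 passed without control morula replicate 2 (1.53, adjusted p = 0.0194), and Gm2016 passed in morulae without control replicate 7 (1.16, adjusted p = 0.0298).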
